A study of Mus musculus with 35 samples.

Results

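Expression of 5 genes of thyroid hormone action was followed through cold exposure of mouse interscapular brown adipose tissue (iBAT): Dio2, Thra, Thrb, Thrsp and Slc16a10. They were taken by name, as 5 of the 55421 gene rows of the count table. All 5 had enough counts to be tested at every duration. Tissue came from 35 male C57BL/6J mice aged 9 to 10 weeks, none carrying a transgene, with 5 mice kept at room temperature (RT, the colony at 24 °C) and 5 mice at 6 °C for each cold exposure, of 6 hours or of a whole number of days from 1 to 5. The cold-exposed mice were also housed singly in static cages without nesting material, so that temperature and housing cannot be told apart. One pad per mouse, trimmed of white fat, was sequenced whole.

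Brown adipocytes burn fuel to make heat, and thyroid hormone is needed for that response. Thyroxine, the main circulating form, is converted inside the cell to the active hormone triiodothyronine by type 2 iodothyronine deiodinase, a selenoprotein encoded by Dio2, whose transcription is driven by noradrenaline and cAMP. The active hormone binds nuclear receptors made from Thra (receptor alpha) and Thrb (receptor beta), which pair with retinoid X receptors. Slc16a10 encodes a plasma membrane transporter of aromatic amino acids and thyroid hormone, and Thrsp (Spot 14) is a classical thyroid hormone-induced gene of fatty acid synthesis.

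Levels are given as CPM, the reads counted on a gene scaled to a common library total after TMM normalization. Libraries held 3846016 to 6047247 counts. The kit reads transcript ends, so levels of different genes were not compared with each other. All 11 brown adipocyte markers were detected in every group, with a summed level between 14051 and 24666 CPM over all mice, whereas the 3 thyroid gland markers together stayed at or below 0.708 CPM. In whole tissue, fewer cells of a type and less RNA per cell cannot be told apart.

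The sequence just upstream of Dio2 holds a cAMP response element, known as the binding site of factors activated by cAMP. The 250 bases before the RefSeq start are shown for Dio2, the gene that rose at every duration, and for Thrsp, which fell first and rose later. They are taken from RefSeq on GRCm38.p6, at chr12:90739039-90739288 for Dio2 and chr7:97417551-97417800 for Thrsp, both on the minus strand and read 5′ to 3′ on the strand of the gene. The RefSeq start of Dio2 lies 600 bases upstream of the 5′ end of the gene in GENCODE. That of Thrsp lies 180 bases downstream of its GENCODE 5′ end, so both marked Thrsp motifs fall within the gene as placed by GENCODE. Capitals mark TGACGTCA, the full cAMP response element, in Dio2, and CCAAT or its reverse complement ATTGG in Thrsp.
Dio2: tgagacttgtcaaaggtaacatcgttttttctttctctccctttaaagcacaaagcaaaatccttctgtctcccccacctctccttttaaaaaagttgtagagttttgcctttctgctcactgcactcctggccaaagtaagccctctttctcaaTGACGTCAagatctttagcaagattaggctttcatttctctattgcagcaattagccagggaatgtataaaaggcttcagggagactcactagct
Thrsp: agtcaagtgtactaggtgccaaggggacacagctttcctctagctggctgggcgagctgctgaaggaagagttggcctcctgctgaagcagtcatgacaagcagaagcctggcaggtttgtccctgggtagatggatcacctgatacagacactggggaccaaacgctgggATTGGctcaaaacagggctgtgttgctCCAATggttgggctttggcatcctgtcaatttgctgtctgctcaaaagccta
Windows from 250 bases before to 50 bases after the start were searched on both strands, and RefSeq windows were at hand for 4 of the 5 genes (5 windows, 2 of them for Thrb). TGACGTCA, which reads the same on both strands, began 95 bases before the Dio2 start and was in no other window of the 5. Of 32817 windows genome-wide, 1.79% held it. The shorter TGACG, which lies within it on either strand, was also found once in a Thrb window and is in 20.8% of all windows. CCAAT occurred on each strand of the Thrsp and Slc16a10 windows and in 37.4% of all windows. The nuclear receptor motif AGGTCA was found in 1 Thrb window (16.3% of all windows), and a direct repeat of it spaced by 4 bases, the thyroid hormone response element layout, in none of the 5 (0.0152% of all windows). These matches describe letters in a short window and not binding.

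Each duration of cold was compared with RT by edgeR's quasi-likelihood test, fitted to the whole table, and a gene was called changed at a Benjamini-Hochberg adjusted p below 0.05. After 6 hours all 5 genes passed, Dio2 and Slc16a10 higher and Thra, Thrb and Thrsp lower. Of the 10593 genes tested at that time 42.5% passed, 21.5% higher and 21.0% lower. Fewer of the 5 passed later. They were Dio2 and Thrb after 1 day (36.7% of all tested genes passed), Dio2 and Thra after 2 days (31.2%), and Dio2, Thra and Thrb after 3 days (33.8%) and after 4 days (38.0%). After 5 days Dio2 and Thrsp were higher and Thra and Thrb lower, while 38.8% of all tested genes passed, 20.2% higher and 18.6% lower. The 6 comparisons share the same 5 RT mice.

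**Figure D1:**
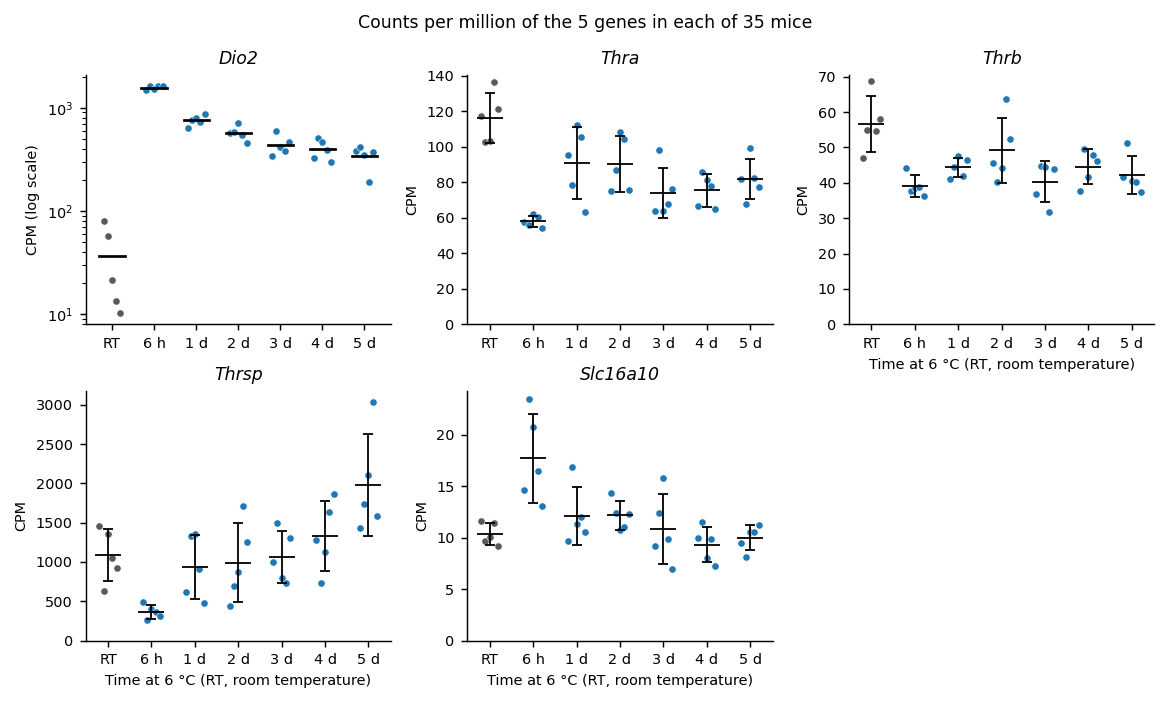
Level of each gene in CPM (vertical axis, log scale for Dio2 only) in the 5 mice of each group, with RT in grey and time at 6 °C in blue. Black lines are group means, with the SD as bars in the 4 linear panels, and Dio2 is seen far above RT in every cold mouse while Thra and Thrsp are lowest at 6 hours.

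**Figure D2:**
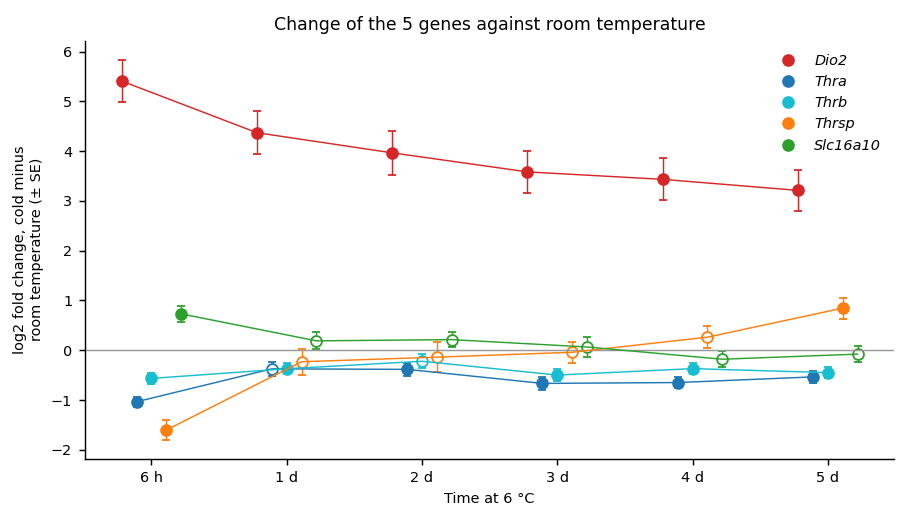
Log2 fold change against RT with its SE (vertical axis) at each duration of cold (horizontal axis), for the 5 genes in colours. Filled points passed the test and open points did not, and Dio2 falls from 5.41 at 6 hours to 3.21 at 5 days while Thrsp runs from -1.60 to 0.85.

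Dio2 (ENSMUSG00000007682, chr12:90724552-90738438, minus strand, GRCm38, 2 exons) rose most. The 5 RT mice had 79.9, 56.6, 21.4, 13.4 and 10.2 CPM. After 6 hours the values were 1477, 1629, 1519, 1618 and 1613 CPM. Every cold mouse was far above every RT mouse, and the spread had narrowed. The coefficient of variation was 84.2% at RT and 4.37% after 6 hours, and the highest RT mouse had 7.80 times the level of the lowest, against 1.10 times after 6 hours. The increase was 42.5-fold (log2 5.41, SE 0.43, adjusted p = 2.8e-08 in edgeR's quasi-likelihood test, n = 5 per group), the fourth highest log2 fold change of 10593 genes.

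The mean Dio2 level then came down with each further duration, and Dio2 stayed above RT in every mouse. After 1 day it was 642, 768, 792, 728 and 863 CPM, and after 2 days 575, 580, 710, 544 and 451 CPM. After 3 days it was 339, 590, 416, 380 and 464 CPM. These 3 groups overlapped with their neighbours in time, whereas none of the 1 day mice reached the lowest 6 hour mouse. After 4 days the values were 323, 510, 465, 391 and 297 CPM, and after 5 days 378, 415, 352, 193 and 369 CPM. The highest mouse after 5 days thus had 415 CPM, below the lowest mouse after 2 days. Log2 fold changes against RT were 4.37 (SE 0.44), 3.97 (0.44), 3.58 (0.43), 3.43 (0.42) and 3.21 (0.41) after 1 to 5 days, the last being 9.27-fold. The RT mice decided part of these sizes, since leaving out RT replicate 1, the highest, gave the upper end of a range from 5.18 to 5.93 after 6 hours and from 2.97 to 3.73 after 5 days.

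Successive durations were compared in a single fit of all 7 groups. Between 6 hours and 1 day Dio2 fell by 1.06 on the log2 scale (SE 0.28, adjusted p = 0.0080 by edgeR), when 15.3% of 12077 genes changed. No later single step of Dio2 passed, with log2 differences of -0.40, -0.40, -0.14 and -0.22. The share of all genes called was low in those steps, at 3.15% of all genes from 1 to 2 days, 0.497% from 2 to 3 days and 0.0% in the last pair of steps, where edgeR called no gene although 904 and 848 genes had an unadjusted p below 0.05. Over the whole interval from 6 hours to 5 days Dio2 fell by 2.21 (SE 0.29, adjusted p = 2.0e-07), with 34.1% of all genes changed.

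Dio2 shares 100 exon bases at its upstream end with Gm26512, a long noncoding RNA on the opposite strand. Gm26512 had 80 counts in all 35 mice together, between 2 and 12 per mouse at RT and at most 1 after 6 hours. The Dio2 counts were at least 57 in any mouse, against those few reads of the overlapping gene. Other genes of deiodination and hormone binding had few or no reads at this depth. Dio1, another activating deiodinase, had 0 counts in every mouse, and Dio3, the inactivating deiodinase, had 1 count in 35 mice. Crym, a cytosolic thyroid hormone binding protein, and Iyd, which salvages iodide, had at most 6 and 2 counts in any mouse.

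Thra (ENSMUSG00000058756, chr11:98740638-98769006, plus strand) was lower in cold. RT mice had 118, 103, 103, 137 and 121 CPM. After 6 hours the values were 57.9, 55.7, 61.9, 60.2 and 54.5 CPM, all below the lowest RT mouse. The level had dropped 2.05-fold (log2 -1.03, SE 0.10, adjusted p = 3.3e-07 in edgeR, n = 5 per group), and the median of all tested genes was -0.03. After 1 day it was 95.6, 78.4, 112, 105 and 63.1 CPM, and after 2 days 75.0, 87.0, 108, 105 and 75.9 CPM. Both groups overlapped with RT. The log2 fold change after 1 day, -0.37 (SE 0.15), missed the threshold (adjusted p = 0.056), though it passed in the fit of all 7 groups (adjusted p = 0.033), and that after 2 days, -0.38 (SE 0.13), just passed it (adjusted p = 0.035). Leaving out any of 6 single mice of the 10 ended the 2 day call.

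From 3 days on every cold mouse was below every RT mouse for Thra again. After 3 days the level was 63.9, 97.9, 63.7, 68.0 and 76.3 CPM, after 4 days 66.8, 86.0, 81.6, 77.9 and 65.1 CPM, and after 5 days 82.1, 68.0, 99.1, 82.5 and 77.2 CPM. The log2 fold changes were -0.67 (SE 0.13), -0.65 (SE 0.11) and -0.53 (SE 0.12), all of which passed. From 6 hours to 1 day Thra rose by 0.64 (SE 0.14, adjusted p = 0.0012 by edgeR), with no overlap between the groups, and from 6 hours to 5 days by 0.49 (SE 0.14). In the order of mean levels RT came first and 6 hours last, and of the neighbours in that order only RT and 1 day passed the test in the fit of all 7 groups, although their values overlapped. The 3 day and 6 hour mice, the last pair in that order, did not overlap (63.7 to 97.9 against 54.5 to 61.9 CPM) but missed the threshold (adjusted p = 0.060).

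A limit on Thra lies at its end. The last exons of Thra overlap Nr1d1 (Rev-erb alpha), a repressor of the circadian clock on the opposite strand, over 263 bases at chr11:98768157-98768419, and Thra also makes a splice form that does not bind hormone, which gene counts cannot separate. The kit marks strand, but whether the counting used it is not given in the sources used here. Nr1d1 had 26.7, 32.8, 57.6, 40.4 and 37.5 CPM at RT and 6.26, 6.27, 5.14, 4.72 and 4.37 CPM after 6 hours. It thus fell in the same mice as Thra, by 2.90 on the log2 scale (SE 0.20, adjusted p = 5.5e-09), and after 5 days it was -0.46 (SE 0.18). Of 13 clock genes, 12 were tested after 6 hours and 5 were higher and 5 lower, led by Arntl, the activator of the loop (3.53), Nr1d1 and Dbp, an output factor (-2.71). After 1 to 5 days 7, 8, 7, 7 and 9 of the 12 were lower and 3, 3, 2, 2 and 3 higher. The median log2 fold change of the 12 was -0.16 after 6 hours and -1.33 after 5 days. Among all tested genes 21.0% were lower and 21.5% higher after 6 hours, and 18.6% and 20.2% after 5 days. The time of day of tissue collection is not given in the sources used here, and the part of the clock or of shared reads in the Thra values was not tested. Within groups, Thra and Nr1d1 had the same highest mouse in 0 of 7 groups and the same lowest mouse in 2 of 7.

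Thrb (ENSMUSG00000021779, chr14:17660261-18038090, plus strand) was lower by a smaller amount. RT mice had 47.1, 54.9, 68.8, 54.6 and 58.0 CPM. After 6 hours the values were 44.3, 37.6, 38.4, 38.7 and 36.2 CPM, all below the lowest RT mouse. This was a 1.48-fold decrease (log2 -0.57, SE 0.11, adjusted p = 4.5e-04 by edgeR, n = 5 per group). After 1 day the values were 41.2, 44.5, 47.6, 41.8 and 46.5 CPM (log2 -0.37, SE 0.11, adjusted p = 0.014), and 4 of the 5 mice were below RT. Without the filter on low counts this call was lost (adjusted p = 0.060). After 2 days they were 45.5, 40.2, 44.1, 63.6 and 52.5 CPM, overlapping with RT, and the log2 fold change of -0.22 (SE 0.14) did not pass (adjusted p = 0.24), except with scaling by library size only (-0.46, adjusted p = 0.013).

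Thrb passed at each of the later durations. The level was 36.8, 44.6, 44.5, 31.9 and 43.9 CPM after 3 days, 37.7, 49.6, 41.7, 47.8 and 46.1 CPM after 4 days, and 41.7, 51.2, 40.5, 40.3 and 37.4 CPM after 5 days. The 3 day mice were all below RT, and some mice overlapped with RT after 4 and 5 days. Log2 fold changes were -0.50 (SE 0.12), -0.37 (SE 0.11) and -0.45 (SE 0.12), and the 4 day call was lost when replicate 1 of that group was left out (-0.31, adjusted p = 0.053). No step between successive durations passed for Thrb, nor did the change from 6 hours to 5 days (0.10, SE 0.12), and neighbours in its order of mean levels all overlapped and none passed.

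The partners of both receptors did not move with them as a group. Of the 5 receptor genes listed, Rxrg (retinoid X receptor gamma) rose after 6 hours (13.9 to 27.7 CPM on average, log2 0.98, SE 0.18) and Thra and Thrb fell. Rxra and Rxrb stood at -0.29 (SE 0.16) and -0.10 (SE 0.11) without passing. After 5 days Rxrb rose (0.59, SE 0.12) and Rxra (0.25) and Rxrg (0.43) did not pass. With scaling by library size only, 4 of the 5 receptor genes were lower after 6 hours. Of 13 coregulators that receptors recruit, 5 rose and 2 fell after 6 hours, with a median of 0.10, and 3 rose and 4 fell after 5 days, with a median of -0.06. Among all tested genes 21.5% rose and 21.0% fell after 6 hours, and 20.2% rose and 18.6% fell after 5 days. The coactivator genes Ppargc1a (3.62, then 1.97 after 5 days), Ncoa1 (1.12, then 0.63) and Med1 (0.91, then 0.43) rose at both times. The 4 that fell after 5 days were the coactivator genes Ncoa3 (-0.77), Ncoa2 (-0.58) and Ep300 (-0.38) and the corepressor gene Ncor1 (-0.47), and those that fell after 6 hours were Ncor1 (-0.51) and Hdac3, a deacetylase of the corepressor complex (-0.70). Of these, all but Ncoa3 were named after their values were seen. With library size only the 6 hour counts of coregulators were 3 higher and 6 lower.

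Thrsp (ENSMUSG00000035686, chr7:97412938-97417730, minus strand) changed direction during the cold. RT mice had 1456, 636, 1360, 1049 and 925 CPM. After 6 hours the values were 488, 265, 400, 361 and 310 CPM, all below the lowest RT mouse. The level fell 3.04-fold (log2 -1.60, SE 0.19, adjusted p = 3.4e-06 in edgeR, n = 5 per group). After 1 day the values, 616, 1329, 1350, 909 and 472 CPM, spread over and below the RT range. From 6 hours to 1 day Thrsp rose by 1.35 (SE 0.30, adjusted p = 0.0016 by edgeR), and 4 of the 5 mice were above the highest 6 hour mouse.

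Over the following days Thrsp overlapped with RT. The level was 436, 689, 876, 1709 and 1249 CPM after 2 days and 996, 1491, 796, 729 and 1301 CPM after 3 days. It was 1274, 726, 1122, 1637 and 1868 CPM after 4 days. None of the log2 fold changes passed, with -0.23 (SE 0.26) after 1 day, -0.14 (SE 0.30), -0.04 (SE 0.21) and 0.26 (SE 0.22) after 4 days. The spread within groups was wide, with a coefficient of variation up to 50.3% after 2 days. After 5 days the mice had 1430, 1734, 2101, 3040 and 1591 CPM, 4 of them above the highest RT mouse. This was a 1.80-fold increase over RT (log2 0.85, SE 0.21, adjusted p = 0.0039), and a rise of 2.43 from 6 hours (SE 0.31, adjusted p = 1.1e-07). The mouse with the most Thrsp after 5 days, replicate 4, was the one with the least Dio2 (193 CPM). The same held after 6 hours (replicate 1, 488 CPM of Thrsp and 1477 CPM of Dio2) and after 4 days (replicate 5, 1868 and 297 CPM). It did not hold at RT or after 1, 2 and 3 days. Over the 7 groups Dio2 and Thrsp had the same highest mouse in 2 and the same lowest mouse in 0. These counts leave out opposite extremes, and the relation was not tested.

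Thrsp followed Fasn, the fatty acid synthase gene, from mouse to mouse. The same mouse was highest for both genes in 5 of 7 groups and lowest for both in 6 of 7, and the 5 RT mice stood in the same order. RT mice had 3305, 421, 2267, 1491 and 1164 CPM of Fasn. Both values come from the same libraries. Other pairs shared some mice too, and how often pairs of genes at large do so was not examined. Thra and Fasn had the same highest mouse in 2 groups and the same lowest in 4, Thrb and Thrsp in 4 and 1, Thrsp and Ucp1 in 3 and 3, and Dio2 and Fasn in 2 and 0. Of 10 lipogenic genes listed as partners of Thrsp, 6 fell and 1 rose after 6 hours with a median log2 fold change of -0.47, and 6 rose and 1 fell after 5 days with a median of 0.78. Among all tested genes 21.0% fell and 21.5% rose after 6 hours, and 20.2% rose and 18.6% fell after 5 days. Acly, which makes cytosolic acetyl-CoA, went from -1.69 (SE 0.34) to 2.11 (SE 0.37), and Fasn from -1.34 (SE 0.36) to 1.35 (SE 0.34). Srebf1, a transcription factor for these enzymes, was lower at both times (-1.80 and -0.63), and the elongase gene Elovl6 higher at both (1.20 and 2.16).

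**Figure D3:**
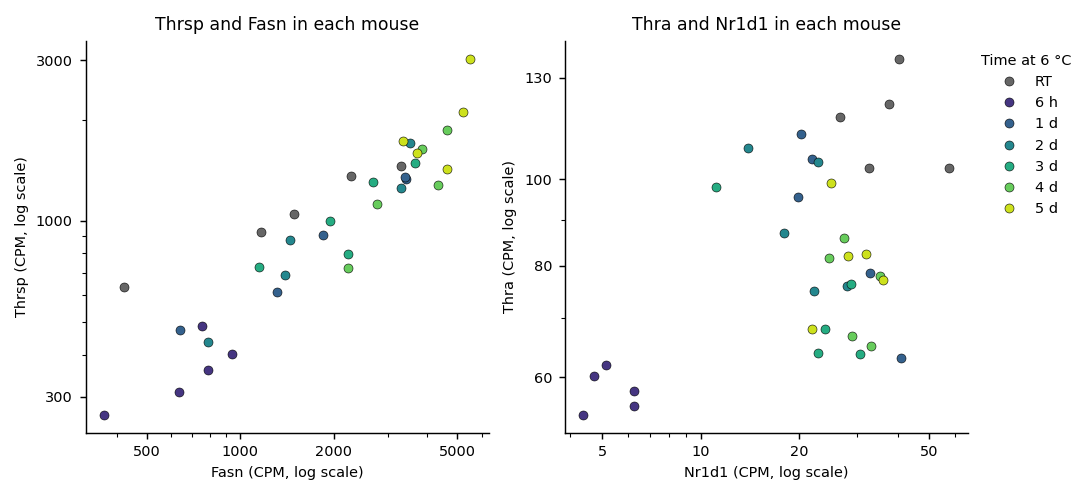
Each point is 1 of 35 mice, coloured by time at 6 °C (RT in grey), with CPM on log axes for Thrsp against Fasn (left) and Thra against Nr1d1 (right). The 5 mice of 6 hours lie at the lower left in both panels, at 265 to 488 CPM of Thrsp and 54.5 to 61.9 CPM of Thra, and Thrsp and Fasn share their highest mouse in 5 of 7 groups and their lowest in 6, while Thra and Nr1d1 share their highest in 0 and their lowest in 2.

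Thrsp belongs to a list of 15 genes known to respond to thyroid hormone in some tissue, which respond to other signals too. Fasn and Me1 are among the genes that this list shares with the lipogenic list above, so the counts of these lists are not separate. After 6 hours 14 were tested, of which 4 rose and 5 fell (median -0.27), while 21.0% of all tested genes fell. Those that rose included Ucp1, the uncoupling protein (1.90, SE 0.17), and Bcl3 (1.43, SE 0.18). Thrsp and Fasn were among those that fell. The number that rose was 4, 5, 4, 5, 7 and 9 over the 6 durations, while the share of all tested genes that rose was 21.5%, 18.9%, 16.4%, 18.3%, 19.4% and 20.2%. The 6 numbers share the RT mice. After 5 days none of the list fell, while 18.6% of all tested genes did (list median 0.62, against -0.02 for all tested genes). Ucp1 (1.98, SE 0.18), Bcl3 (1.93, SE 0.19) and Me1, malic enzyme (1.86, SE 0.18), changed most after 5 days. With scaling by library size only, 3 of the list were lower after 5 days. Fgf21, a hormone gene of the list, was too low to test and had at most 1 count in any RT mouse and 4 to 39 counts after 5 days.

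Slc16a10 (ENSMUSG00000019838, chr10:40033532-40142258, minus strand) rose briefly. It had 27 to 101 counts per mouse, the shallowest of the 5. RT mice had 11.6, 9.72, 10.0, 11.4 and 9.16 CPM. After 6 hours the values were 14.6, 23.5, 20.8, 16.5 and 13.1 CPM, all above the highest RT mouse. The increase was 1.66-fold (log2 0.73, SE 0.17, adjusted p = 0.0018 by edgeR, n = 5 per group). By 1 day the values were 9.65, 16.8, 11.3, 12.0 and 10.6 CPM, a decrease of 0.56 from 6 hours (SE 0.18, adjusted p = 0.028), although this call was lost when only those groups were fitted (adjusted p = 0.052).

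From 1 day on Slc16a10 overlapped with RT at every duration and no comparison with RT passed. The level ranged from 10.8 to 14.4 CPM after 2 days, 6.93 to 15.8 CPM after 3 days, 7.23 to 11.5 CPM after 4 days and 8.16 to 11.3 CPM after 5 days. Log2 fold changes from 1 to 5 days were 0.19, 0.21, 0.07, -0.18 and -0.08, with SEs of 0.15 to 0.20, and those after 1 and 3 days were negative with scaling by library size only. From 6 hours to 5 days it fell by 0.82 (SE 0.18, adjusted p = 4.8e-04), with every 5 day mouse below every 6 hour mouse.

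Slc16a10 was compared with other genes of thyroid hormone and amino acid transport. Slc3a2 encodes the heavy chain shared by amino acid exchangers, and rose from 37.9, 38.1, 36.7, 35.2 and 28.2 CPM at RT to 167, 210, 236, 248 and 218 CPM after 6 hours (log2 2.59, SE 0.12), staying higher after 5 days (2.35, SE 0.15). Its light chain gene Slc7a8 had 9.53, 14.9, 20.1, 14.2 and 15.4 CPM at RT and was above RT in every mouse after 6 hours, at 48.5, 57.1, 38.4, 44.2 and 38.6 CPM (1.59, SE 0.16). After 5 days it was below RT (-0.89, SE 0.24). The light chain gene Slc7a5 and the organic anion transporters Slco1c1, Slco1a4 and Slco1a5 did not have enough counts for the test.

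The protein made from Dio2 contains selenocysteine and is removed quickly by ubiquitination, and both processes have their own genes. Of 6 selenoprotein synthesis genes, 5 were tested after 6 hours. Secisbp2, which binds the selenocysteine element of the mRNA (0.91, SE 0.13), Sephs2, which makes selenophosphate (0.71, SE 0.10), and Sepsecs (0.60, SE 0.13) rose, and Pstk (-0.72, SE 0.17) and Trnau1ap (-0.72, SE 0.18) fell. After 5 days 2 of 6 were higher, Eefsec, the elongation factor for selenocysteine (1.15, SE 0.30), and Sepsecs (0.45, SE 0.15), and none lower. With library size only these 5 day counts were 1 higher and 1 lower. Among all tested genes 21.5% were higher and 21.0% lower after 6 hours, and 20.2% and 18.6% after 5 days.

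Of 8 genes for turnover of the Dio2 protein, 4 rose and none fell after 6 hours (median 0.59), while 21.5% of all tested genes rose and 21.0% fell. Usp33, a deubiquitinase that can rescue the enzyme, rose by 1.35 (SE 0.11), and the ubiquitin-conjugating enzyme genes Ube2j2, Ube2g2 and Ube2j1 by 0.85, 0.69 and 0.49. The ubiquitin ligase adaptor gene Wsb1 (0.78, SE 0.34) and Usp20 (0.16, SE 0.16) did not pass. After 5 days Ube2j2 (0.90) and Usp33 (0.60) were higher and March6, a ligase gene, lower (-0.38, SE 0.12). With library size only 1 of the 8 was lower after 6 hours.

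Of the receptors that act upstream of Dio2, the bile acid receptor gene Gpbar1 was too low to test. Adrb3, the beta 3 adrenergic receptor gene of adipocytes, had 90.6, 137, 105, 59.0 and 80.8 CPM at RT. After 6 hours, when Dio2 was highest, it was at 22.9, 41.8, 63.0, 59.5 and 34.1 CPM, a fall of 1.12 (SE 0.23, adjusted p = 8.2e-04 by edgeR). After 5 days it was higher than at RT (0.61, SE 0.19), a call that was lost with library size only. Adrb1 (-0.07, SE 0.17) and the thyrotropin receptor gene Tshr (0.13, SE 0.32) did not pass after 6 hours.

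**Figure D4:**
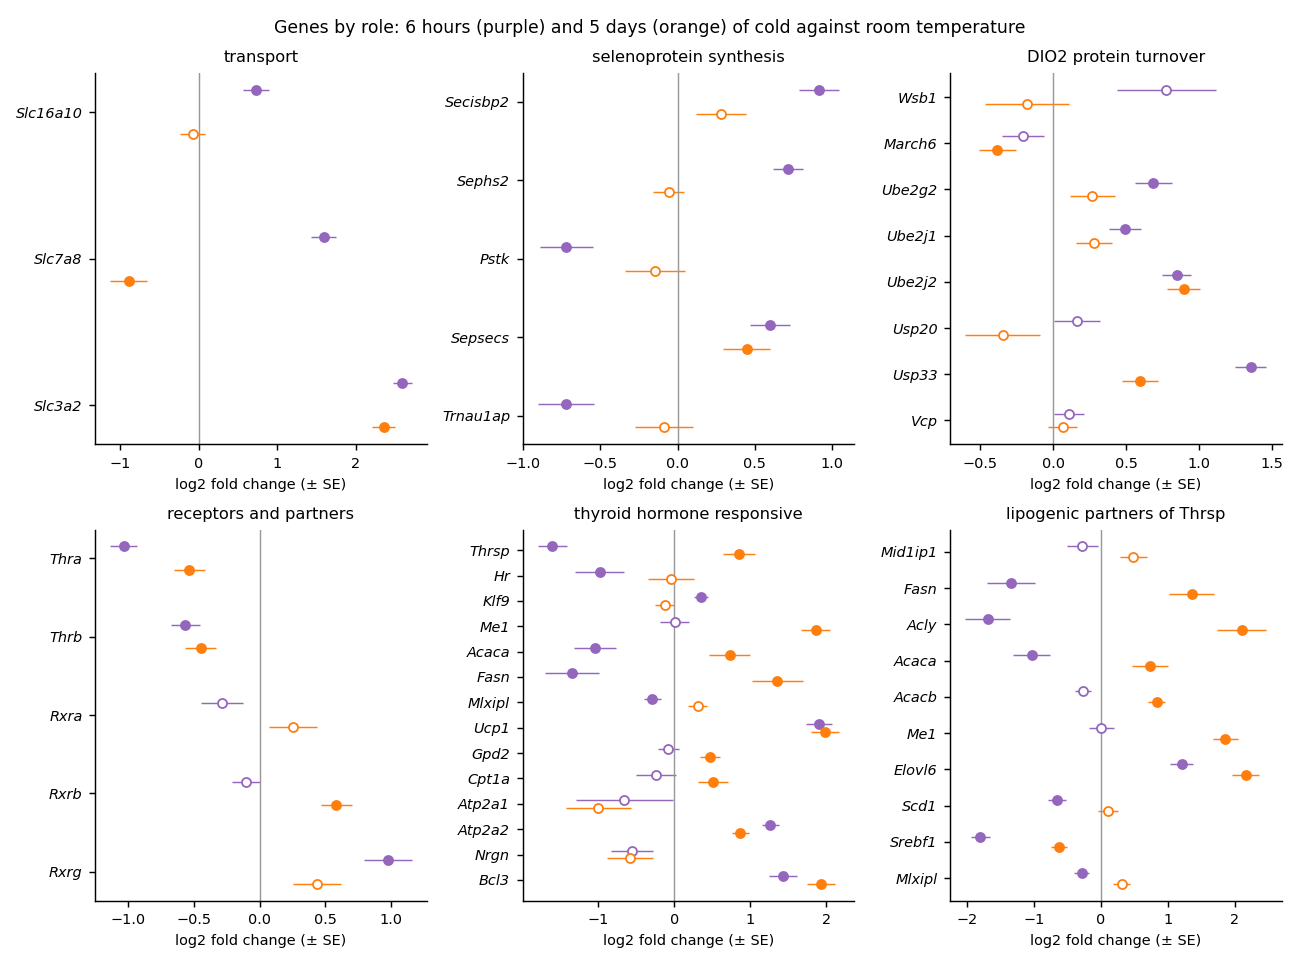
Log2 fold change with SE (horizontal axes) of genes by role that were tested at both times, after 6 hours (purple) and 5 days (orange) against RT, in 6 panels by role. Filled points passed the test, and Thrsp, Fasn and Acly cross from below 0 to above 0 while Thra and Thrb stay below 0.

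The brown adipocyte markers did not move together. After 6 hours Ucp1 (log2 1.90) and Zic1 (0.70) were higher, Ppara (-1.19), Ebf2 (-0.59) and Adipoq (-0.40) lower, and the others did not pass. After 5 days Ucp1, Zic1, Cox7a1 and Plin1 were higher and Ppara, Ebf2, Prdm16 and Adipoq lower. Some markers of other cells in the depot also differed between the groups. The summed level of 4 endothelial markers was 228 to 280 CPM at RT and 404 to 489 CPM after 6 hours. Pecam1 (log2 1.08) and Kdr (0.99) among them passed after 6 hours, and Cdh5 (0.03) and Emcn (0.21) did not. After 1 day the sum was 473 to 557 CPM and all 4 were higher, Cdh5 by 0.37 and Emcn by 0.98. From 2 to 4 days Pecam1, Kdr and Emcn still passed, Cdh5 only after 2 days, and none did after 5 days. The sum of 5 white-like adipocyte markers was 1934 to 2833 CPM at RT, 1387 to 2142 CPM after 6 hours and 280 to 660 CPM after 5 days. Lep (-3.44) and Cfd (-2.76) were lower after 5 days, and Nnat (-0.20), Retn (0.08) and Agt (0.85) did not pass. Nnat was lower after 1, 2 and 3 days (-2.06, -3.19 and -0.89). In this tissue the paper uses Nnat as a marker of early brown adipocyte differentiation, so its place among white-like markers is uncertain. Skeletal muscle markers (8 genes) ranged from 2.31 to 1078 CPM over all mice, and the RT mice with the most Dio2, at 79.9 and 56.6 CPM, had 955 and 74.3 CPM of them, the highest and the lowest of their group. The 5 erythroid markers summed to 1803 to 2316 CPM at RT and 2709 to 4980 CPM after 5 days, with no overlap. The globin genes Hbb-bs (log2 1.08) and Hbb-bt (1.20) and the heme synthesis gene Alas2 (0.57) passed in edgeR at that time. The globin genes Hba-a1 (0.23) and Hba-a2 (0.21) did not. The 4 macrophage markers had a median sum of 31.8 CPM at RT, 59.8 CPM after 3 days and 61.7 CPM after 4 days. Cd68 among them was higher from 2 to 5 days (log2 1.99, 2.91, 2.04 and 2.14). Mrc1 passed only after 3 days (0.57) and Csf1r at no duration. Adgre1 was too low to test before 3 days and did not pass later. The 4 stromal markers summed to 339 to 467 CPM at RT, 265 to 329 CPM after 1 day and 244 to 454 CPM after 5 days. No list other than that of the thyroid had a marker at 0 throughout a group. The part of these cells in the values of the 5 genes was not tested.

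The genes whose 7 group means of log2 CPM, each less its own mean, lay nearest to those of a member were found among 6171 genes with at least 50 counts on average. For Dio2 they were Mfsd2a (root mean square difference 0.43), Cldn1 (0.45) and Gmpr (0.46). With a smaller prior count on the log scale 2 of these 3 remained. Osbpl1a, Gypc and Tfdp2 were nearest to Thra (0.043 to 0.071), and Cyp4f13, Morc3 and Zmym4 to Thrb (0.036 to 0.048). Acy3, Tspan18 and Nudt12 were nearest to Thrsp (0.16 to 0.19). For Slc16a10 they were Ube2q2 (0.018), Cdc42ep4 (0.052) and Sephs2 (0.049), the last of which is also a selenoprotein synthesis gene named above.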

How the data were processed

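RNA from 35 iBAT pads was made into QuantSeq 3' FWD libraries. Per the paper's methods and the submitters' processing notes, the authors aligned reads with STAR 2.6.1d and deposited whole-number counts per gene from HTSeq 0.11.2 on GRCm38, without normalization. Each of the 35 columns was matched to a mouse by its label. Of 55421 rows, 267 had no symbol. Depth was 3846016 to 6047247 counts per mouse, which limits genes near 1 count per library.

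Counts were filtered with filterByExpr, scaled by TMM and tested with edgeR 4.0.16 in R 4.3.3, in a separate fit of each duration with RT and in 1 fit of all 7 groups for successive durations. SEs are the log2 fold change divided by the square root of F. Levels used TMM factors over all libraries, and log2 CPM a prior count of 2. A two-sided exact permutation test of log2 CPM (5 against 5 mice) was below 0.05, unadjusted, for the same 19 of 30 comparisons of members with RT that edgeR called. Alternatives were DESeq2 1.42.0, RLE factors, library size only, no filter, no mitochondrial genes, a replicate block, 1 fit of all groups and leaving out each mouse. Statistics were tested on simulated data.

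No libraries were duplicates, with a chi-square per degree of freedom of at least 5.81 between mice of a group. Replicate numbers name different mice.

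The members, gene lists and tests were chosen with earlier results of these data known. Named genes were the members, list genes called after 6 hours or 5 days with the largest changes (up to 3 per list), genes of lists of up to 8 genes, genes overlapping a member, the 3 nearest courses and markers of cell types. The coregulator genes Ncoa2, Ep300, Ncor1 and Hdac3 were named outside this rule, after their values were seen. Fgf21, which was too low to test, was also outside it. Positions come from GENCODE M21 and promoter windows from RefSeq, both on GRCm38. Some listed genes are not reported here.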

Additional observations from a re-analysis of the deposited data

Results flagged for a closer look

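Dio2 was lowest after 5 days in replicate 4, at 193 CPM, apart from the other 4 mice at 352 to 415 CPM. Its gap to the nearest mouse was 0.717 of the range of the group, above Dixon's 95% critical value for 5 samples. Of 35 such groups examined, chance flags about 1 in 20.

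The change against RT differed between 6 hours and 5 days for 4 of the 5 genes, by the test of 5 days against 6 hours in the fit of all 7 groups, in which 34.1% of all 12077 genes tested passed. The log2 difference, 5 days minus 6 hours, was -2.21 for Dio2, 0.49 for Thra, 2.43 for Thrsp and -0.82 for Slc16a10.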

How the results depend on the processing

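DESeq2 and RLE factors changed no call of a member against RT. Calls near the threshold moved. Thra after 1 day, not called, was called with library size only (-0.59), without the filter (-0.35), without mitochondrial genes and Gm42418 (-0.38), with a replicate block (-0.39) and in 1 fit of all groups (-0.37). Leaving out single mice gave -0.45 to -0.26 for it, with 3 calls. Thra after 2 days ran from -0.45 to -0.32 and lost its call in 6 of 10 such fits, and Thrb after 4 days ran from -0.43 to -0.29 and lost it in 1. Thrb after 1 day lost its call without the filter (-0.35), and Thrb after 2 days gained one with library size only (-0.46). Uncalled values changed sign for Slc16a10 with library size only, after 1 day (-0.0362), after 3 days (-0.0636) and from 4 to 5 days (-0.00303). They also did so when single mice were left out, for Thrsp after 2 days (-0.43 to 0.0423) and 3 days (-0.19 to 0.0894) and for Slc16a10 after 3 days (-0.12 to 0.18). The cause was not tested.

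Library size only moved the median of all genes to between -0.25 and -0.15 and the share of higher genes among those called after 6 hours from 50.6% to 28.3%. Genes called from 1 to 2 days were 381 in the fit of all groups and 130 with those groups alone, and from 2 to 3 days 60 and 15. Replicate numbers did not pair the mice (correlations of deviations from -0.187 to 0.129, the same number highest in 7 of 30), and the block changed no other member call. At this depth Slc16a10 rests on the fewest reads, and small changes in it cannot be resolved. Its log2 fold change after 2 days, 0.21 with an SE of 0.15, was larger than the SE and did not pass.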
